A study of Schizosaccharomyces pombe with 2 samples.

Results

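The genes described here are 10 listed genes of ergosterol synthesis in *Schizosaccharomyces pombe*, taken out of 5113 protein-coding genes on chromosomes I, II and III. They are *hmg1*, *erg9*, *erg1*, *erg7*, *erg11*, *erg24*, *erg25*, *erg27*, *erg6* and *erg5*, chosen by name as the pathway that clotrimazole inhibits at *erg11*. Every transcript model overlapping one of these genes on either strand was taken, which gave 92 models in the WT library and 213 in the pooled library. PacBio Iso-Seq reads cDNA of polyadenylated RNA from end to end, and a transcript model is the set of exons left after similar isoforms were collapsed. The WT library came from untreated h+ cells carrying ade6-M216, ura4-D18 and leu1-32, grown to mid-log phase in YES, a rich medium, at 32 °C. The pool mixed that same background with cells that also carried hrp1del::kanMX and hrp3del, each of the strains without drug, with caffeine at 14 mM and with clotrimazole at 200 ng/ml. The *hrp1* deletion is marked with kanMX, a drug resistance cassette. Hrp1 and Hrp3 are CHD-family nucleosome remodelers. The pooled RNA cannot be divided by strain or drug, and there is 1 library per group and no replicate. Genotype, treatment and sequencing run cannot be told apart, so the values below describe these libraries and no test was made between them.

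Ergosterol is the main sterol of fungal membranes and takes the place that cholesterol has in animal cells. Its synthesis runs from acetyl-CoA through mevalonate to squalene, which is oxidised and folded into lanosterol, and lanosterol is then trimmed and remodelled to ergosterol. Clotrimazole is an azole antifungal, a class that binds the cytochrome P450 enzyme Erg11 and blocks removal of the 14-alpha methyl group of the sterol ring. In *S. pombe* the membrane-bound transcription factor Sre1 senses low sterol and low oxygen and raises transcription of genes of this pathway.

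The WT library held 26120 models and the pool 69996, of which 26057 and 69823 lay on chromosomes I to III, a ratio of 2.68. Read numbers per model were not used here and the depth of each library is unknown, so the number of models at a gene is no measure of its RNA level. The collapse also absorbed models that were only shorter at the 5′ end, which lowers the number of starts seen. It used the setting for RNA without cap selection, so the start of a model may be the end of an incomplete cDNA. Starts below are 5′ ends of models, and whether they are transcription starts was not tested. A sense model here has at least 1 nt of exon on the coding sequence of the gene. Over all protein-coding genes with sense models, the median was 5 per gene in WT (interquartile range 3 to 7, 4656 genes) and 11 in the pool (7 to 15, 5048 genes). Positions are given on ASM294v3, 1-based, and annotated genes are those of RefSeq.

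All 10 sterol genes had sense models in both libraries, 83 in WT and 163 in the pool. *erg6*, which encodes the sterol C24-methyltransferase, had the most of the 10 genes, with 21 in WT and 34 in the pool. Only 15 of 4656 genes (0.322%) had at least 21 in WT, and 66 of 5048 (1.31%) had at least 34 in the pool. *erg11* followed with 14 and 23, numbers reached by 3.65% and 7.51% of genes. *erg24*, the C14 sterol reductase that acts just after Erg11, had the fewest, 2 in WT and 6 in the pool. The other genes had 4 to 10 in WT and 10 to 19 in the pool. The ratio of pool to WT ranged from 1.5 at *erg9* to 4.75 at *erg27*, with a median of 2.03 over the 10 genes. Over 4655 protein-coding genes the median ratio was 2.33 (interquartile range 1.75 to 3.20). The ratios at *erg9* (1.5), *erg6* (1.62), *erg11* (1.64) and *hmg1* (1.71) were below the lower quartile, and that at *erg27*, the 3-keto sterol reductase, was above the upper one.

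**Figure D1:**
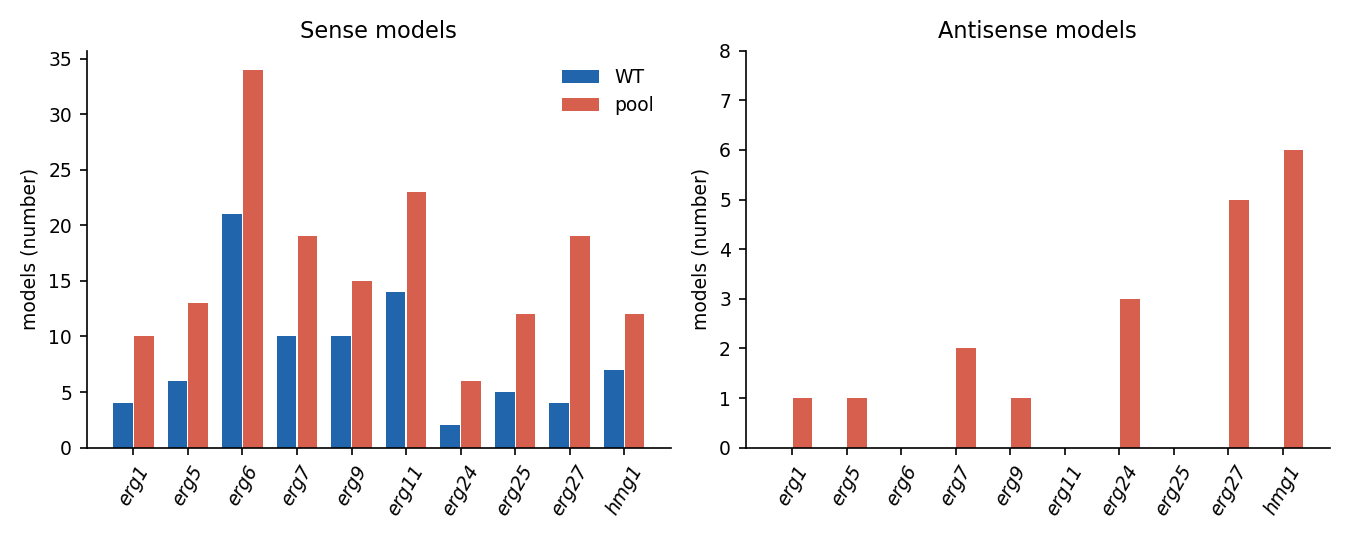
Number of sense models (left) and antisense models (right) of each gene, with WT in blue and the pool in red. All 10 genes have more sense models in the pool, and antisense models are present in the pool only, from 1 at *erg1*, *erg5* and *erg9* to 6 at *hmg1*.

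Most models of both libraries encoded the annotated protein. Of the sense models, 71 of 83 in WT (85.5%, exact Clopper-Pearson 95% interval 76.1 to 92.3) and 108 of 163 in the pool (66.3%, 58.4 to 73.5) held the whole annotated reading frame. These intervals cover counting error only, and models are not independent molecules. Of the others, 5 WT and 16 pool models ended before the stop codon, 3 and 22 had a frame altered by a retained intron or a gap, and the rest lacked the annotated start codon. Starts were linked into a cluster when they lay within 50 nt of each other. There were 20 start clusters in WT and 36 in the pool, and the largest cluster of each gene together held 72 of 83 WT models and 129 of 163 pool models. Starts of 77 of the 83 WT models (92.8%) had a pool start within 50 nt, and 65 were identical to the base. Of the 78 WT 3′ ends after the stop codon, 74 (94.9%) had a pool end within 25 nt, but only 32 were identical. In the other direction 135 of 163 starts (82.8%) and 109 of 146 ends (74.7%) had a near partner, and 99 and 46 were identical. Most starts were thus shared to the base in both directions, and fewer of the ends were. The collapse absorbed models that were only shorter at the 5′ end, so the shares of starts and ends cannot be compared. The pool also holds untreated WT cells, so a shared position does not show that the mutant or treated cells used it.

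*hmg1* encodes HMG-CoA reductase, the enzyme that makes mevalonate and a main control point of the pathway. It lies on chromosome III from 1561215 to 1565491 on the + strand, with a coding sequence of 3162 nt and no annotated intron. Of its 7 WT models 6 started at 1561215 or 1561217, which gives leaders of 769 to 771 nt. The remaining WT model started at 1564110 inside the coding sequence. In the pool, 6 of 12 models were in the main start cluster and the others formed 6 further clusters. One of these lay 402 nt before the annotated start and gave a leader of 1173 nt with 3 ATG triplets upstream of the start codon. Another at 1561847 shortened the leader to 139 nt, and 3 started within the coding sequence at 1562678, 1563310 and 1564410. 3′ UTRs ran from 92 to 349 nt in WT and from 94 to 349 nt in the pool. A further pool model from 1561211 to 1561936 ended in the leader and held no coding sequence.

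*erg9* encodes squalene synthase, which commits farnesyl diphosphate to sterols. The gene is on chromosome II from 931002 to 932472 on the − strand, opposite the convergent gene *pla1*, which encodes the poly(A) polymerase. All 10 WT and 15 pool models belonged to a single start cluster around 932472, and the leader was 26 to 54 nt in all that held the start codon. The 3′ ends were scattered, a spread that cannot be set against that of the collapsed starts. 3′ UTRs ran from 32 to 626 nt in both libraries, with a WT median of 182 nt and a pool median of 215 nt, against 58 nt in the annotation. In both libraries the farthest 3′ end was 930434, inside the coding sequence of *pla1* on the other strand, and the model overlapped 256 nt of it. Models of *erg9* reached the *pla1* coding sequence in 3 cases in WT and 6 in the pool.

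*erg1* encodes squalene monooxygenase, the enzyme that terbinafine inhibits. Its locus on chromosome II runs from 892160 to 894361 on the + strand with no annotated intron. In WT, 3 of 4 models started at 892155 to 892160 and 1 at 892375, and the pool had both clusters with 6 and 2 of its 10 models. *erg1* was the only one of the 10 genes with TATAAA on the sense strand in the 100 nt before the commonest start of its main cluster, in either library, 29 nt before it in WT. This motif was found in that window before 581 of 5113 annotated gene starts (11.4%). It is shown in capitals, since it sets *erg1* apart from the other 9 genes in this window, with the bases around it on chromosome II from 892116 to 892141.
*erg1* TATAAA: cttgtcgaccTATAAAatcaccaaag
A pool model that began 468 nt before the annotated start had a leader of 987 nt with 4 upstream ATG triplets, while the leaders from the main start had none. Another pool model skipped 583 nt (892665 to 893247), from the leader into the coding sequence, and lost the start codon. This gap began with CT and ended with GG and lay between copies of a 7-nt repeat, in capitals below, so its ends do not have the GT and AG of a spliceosomal intron.
*erg1* gap, low end: tattctttCTTGATTatccacaa
*erg1* gap, high end: ttcttgggCTTGATTttgaccaa
3′ UTRs were 43 to 256 nt in WT and 45 to 250 nt in the pool.

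*erg7* encodes lanosterol synthase, which closes the 4 rings of the sterol. It lies on chromosome I from 2292636 to 2295282 on the − strand and has 3 annotated introns of 46, 56 and 48 nt in order of transcription, which lie at 2294894 to 2294939, 2293755 to 2293810 and 2293089 to 2293136. The cluster around the commonest start, 2295282, held 7 of 10 WT and 16 of 19 pool models. *erg7* was the only one of the 10 genes whose annotated leader, 166 nt long, held ATG triplets, 2 of them. Introns were kept in part of the models. In WT the 46-, 56- and 48-nt introns were retained in 1 of 9, 2 of 10 and 1 of 9 models that reached across them, and in the pool in 1 of 16, 4 of 19 and 4 of 17. Kept alone, they end the reading frame after 70, 434 or 632 residues, in place of 721. The ends of the introns are shown, since all 3 were retained in part of the models of both libraries, with the first 6 nt of the intron, its last AG, and the CTNAC pattern near its 3′ end in capitals.
*erg7* 46-nt intron, 5′ end: ttttgatttaGTAAGTaatcgtttt
*erg7* 46-nt intron, 3′ end: tatggcatataCTAACttttcttAGgatct
*erg7* 56-nt intron, 5′ end: tcgacaacagGTGCGCttctttttt
*erg7* 56-nt intron, 3′ end: tagacgatgaCTAACtttaatttAGattcg
*erg7* 48-nt intron, 5′ end: gagttacatgGTATGGatacaaaat
*erg7* 48-nt intron, 3′ end: ggagattgaCTAACggatgatttAGgcttg
CTNAC, which resembles the branch point of yeast introns, was searched on the sense strand in the last 30 nt of introns and was in all 3 *erg7* introns. Of 5184 annotated introns of protein-coding genes, 54.0% held it. Where an annotated *erg7* intron was removed, its annotated ends were used to the base. The collapse allowed 100 nt of tolerance at junctions, more than the length of these introns, so close variants may have been merged. In the pool, 2 models also had a further gap in the coding sequence. The gap of 92 nt, from 2294200 to 2294291, had GT and AG ends and left 278 residues. The gap of 106 nt, from 2293415 to 2293520, lay between copies of a 6-nt repeat and left 527.

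Over the 3 genes with annotated introns, *erg5*, *erg7* and *erg27*, a model with a retained intron was present for 2 in WT and 3 in the pool. The share over all intron-containing genes was 51.3% of 2217 in WT and 86.0% of 2440 in the pool, so retention at these genes was not set apart from the background. In all, introns were retained 5 times in WT, against 37 splicing events, and 14 times in the pool, against 81.

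*erg11* encodes the sterol 14-demethylase, the target of clotrimazole. The gene spans 574652 to 577153 of chromosome I on the − strand, with a coding sequence of 1488 nt, 495 residues and no annotated intron. In WT, 13 of 14 *erg11* models started between 577151 and 577185, and in the pool 19 of 23 started between 577146 and 577187. Both ranges are shorter than the 100 nt of tolerance at starts in the collapse, so their width does not show a narrow start. Of the pool starts, 16 were identical to a WT start. The commonest start in both was 577153, the annotated one, and the median leader was 531 nt in both. No leader of *erg11* held an upstream ATG, in 14 WT and 20 pool models. The 3′ UTR ran from 30 to 491 nt in WT (median 297) and from 78 to 578 nt in the pool (median 299). This spread cannot be set against that of the collapsed starts. Of 13 WT ends after the stop codon, 4 were identical to a pool end and 12 had one within 25 nt. With ends this scattered a match within 25 nt is a loose measure, and the pool also holds untreated WT cells.

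**Figure D2:**
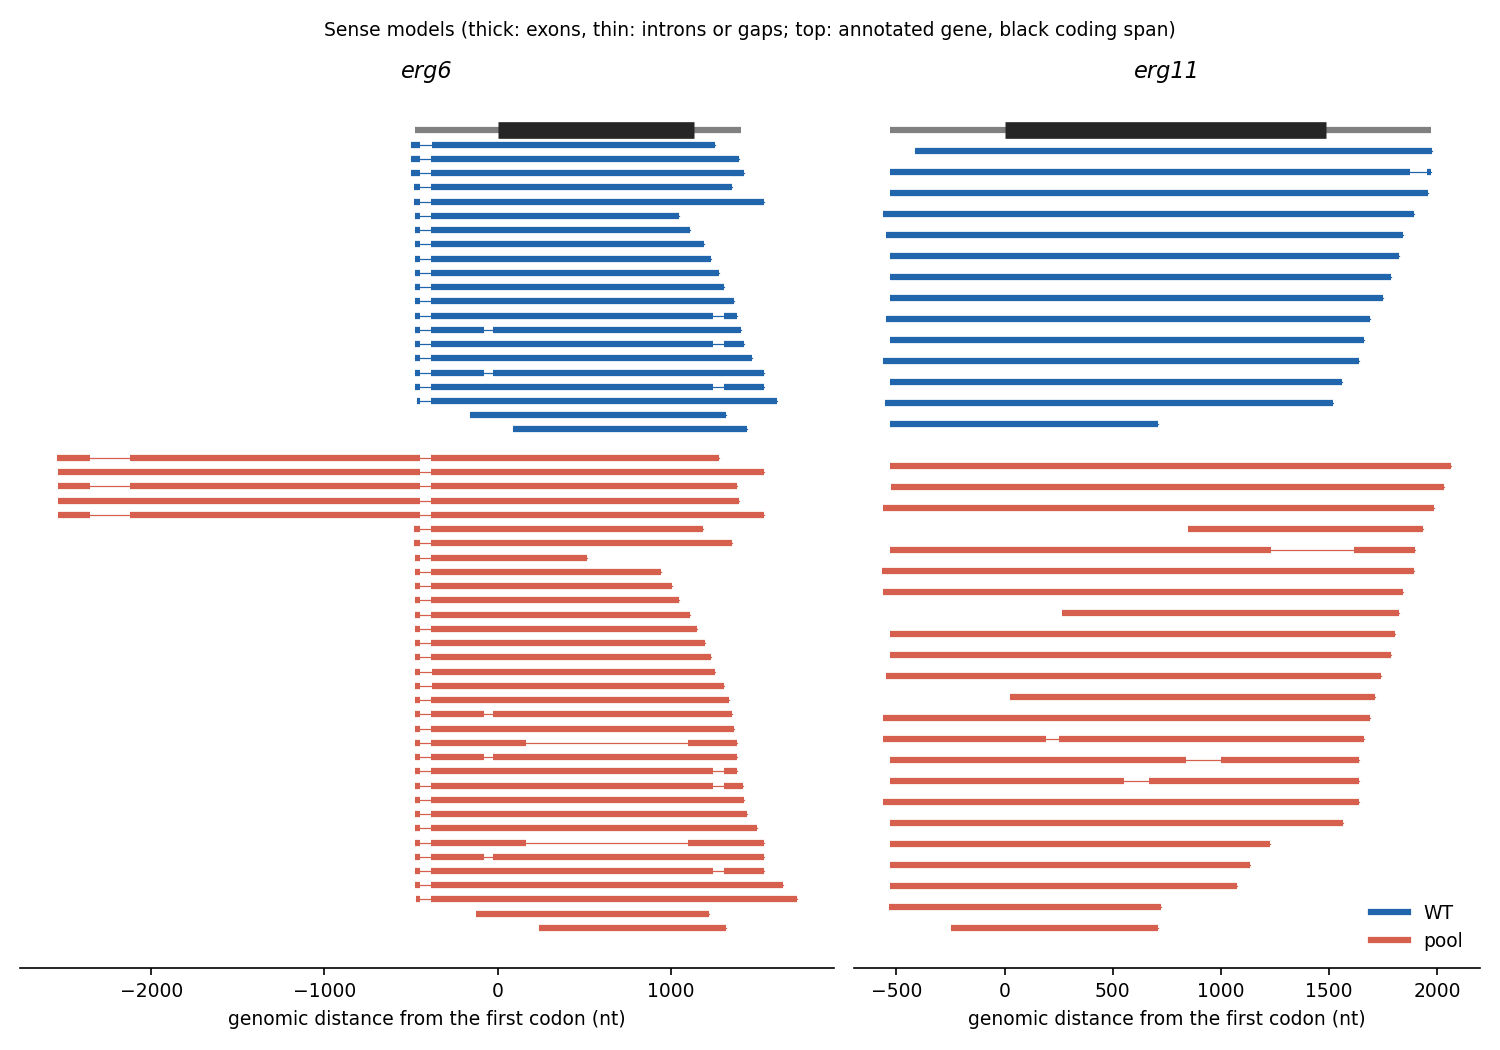
Sense models of *erg6* (left) and *erg11* (right) drawn to scale, with the annotated gene at the top, WT in blue and the pool in red. Thick lines are exons and thin lines introns or gaps, and the x axes give genomic distance from the first codon in nt. At *erg6* the leader intron is present in nearly all models and 5 pool models begin in *pac3*. At *erg11* most of the collapsed starts lie close together and the 3′ ends are spread, which cannot be compared.

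Some *erg11* models ended early. In WT 1 model ended at 575914 inside the coding sequence, 779 nt before the stop codon, and the pool held a model with the identical end and 4 others that ended at 575395, 575488, 575550 and 575901. The 30 nt before it (575943 to 575914) and after it (575913 to 575884) are shown in order of transcription, since both libraries hold the end.
*erg11* before the end: gacgccgtgatagagcccacaaaattatgc
*erg11* after the end: aaaaaacttatcttaaaattattaaagatc
The genome continues with a run of A there, and 11 of the 20 nt after the end are A. Priming of cDNA synthesis on such runs can give ends of this kind, and its part in this end was not tested. Early ends were found at *erg6*, *erg7*, *erg9* and *erg11* in WT (4 of 10 genes, 5 models) and at these and *hmg1* in the pool (5 of 10, 16 models). The share of all genes with such a model was 26.1% in WT and 52.7% in the pool. All 5 WT early ends had a pool end within 10 nt, and 3 of them were identical. None of the 5 WT and 1 of the 16 pool ends had 12 or more A in the next 20 nt, while 12.9% and 13.6% of all models did. The *erg11* end above, with 11, lies just under this limit. The part of such priming in the early ends was not tested.

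The pool also held 4 *erg11* models with a gap of 60, 164, 116 or 385 nt, 1 model each, which would encode 475, 292, 185 and 414 residues. The 60-nt and 164-nt gaps had GT and AG ends, and only the 60-nt one kept the frame. The 116-nt gap lay between copies of a 4-nt repeat, and the 385-nt gap removed the annotated stop codon. A WT model lacked 78 nt of the 3′ UTR with GT and AG ends and kept the protein. The 60-, 164- and 78-nt introns lie at 576370 to 576429, 575621 to 575784 and 574670 to 574747. Their splice ends are shown, as these introns are not annotated and some change the protein, with the first 6 nt and the last AG of each intron in capitals. None of the 3 introns with GT and AG ends had CTNAC in its last 30 nt, and none was seen in the other library.
*erg11* 60-nt intron, 5′ end: gccaaatatgGTGATGttttcacct
*erg11* 60-nt intron, 3′ end: atgaccgctttccttggtgtccaAGgtaat
*erg11* 164-nt intron, 5′ end: gaaattgctgGTATGAtgattgcac
*erg11* 164-nt intron, 3′ end: ggaattgaagtttgaccaatataAGgacat
*erg11* 78-nt intron, 5′ end: taacaataaaGTACGCtactctctc
*erg11* 78-nt intron, 3′ end: taagctattaattaaaattttgtAGttttt

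*erg24* encodes the C14 sterol reductase and lies on chromosome II from 4250013 to 4251433 on the + strand. Both WT models started near the annotated start, at 4250008 and 4250025, with leaders of 59 and 42 nt. In the pool 4 of 6 models did so, and the other 2 started at 4249821 and 4249828, which gives leaders of 246 and 239 nt with 5 upstream ATG triplets each. 3′ UTRs were 82 and 123 nt in WT and 83 to 385 nt in the pool. All 8 models encoded the annotated protein.

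*erg25* encodes the C4 methylsterol oxidase, which in budding yeast acts with the 3-keto reductase encoded by *erg27* in removing the methyl groups at C4. *erg25* lies on chromosome I from 359638 to 361317 on the − strand. All 5 WT and 11 of 12 pool models were in a cluster around 361317, and the remaining pool model started 366 nt before the annotated start with a leader of 721 nt and 7 upstream ATG triplets. Its 3′ UTR ran from 331 to 926 nt in WT and from 17 to 927 nt in the pool, and the longest end was thus the same within 1 nt. A pool model had a 128-nt gap between copies of a 5-nt repeat, which would leave 90 of 300 residues.

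*erg27* lies on chromosome II from 1110867 to 1112435 on the + strand, upstream of *pop8*, which encodes a subunit of RNase P and RNase MRP and is transcribed in the same direction. All 4 WT models were in the cluster around 1110864, with leaders of 26 to 37 nt, as were 16 of 19 pool models. The 47-nt and 48-nt introns were spliced in all 4 WT models. In the pool they were retained in 3 and 1 of 16 models. Retention of the 47-nt intron leaves 14 residues of 338, while the 48-nt intron keeps the frame and would encode 354. In WT 1 model read through into *pop8*, from the *erg27* start to 1113216, with the 57-nt *pop8* intron (1112988 to 1113044) removed and its 41-nt intron (1112788 to 1112828) kept. In the pool 5 models covered *pop8* coding sequence. Of these, 2 began at the *erg27* start, and 3 began inside the *erg27* coding sequence, 983 to 1065 nt after its annotated start. At *erg6*, 5 pool models began at the start of the upstream gene *pac3*. Models reaching the coding sequence of a same-strand neighbour were thus present at 1 of 10 genes in WT and 2 of 10 in the pool, against 14.9% and 24.6% of all genes.

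*erg6* encodes the C24-methyltransferase, which adds the side chain methyl group that cholesterol lacks. It lies on chromosome II from 1923510 to 1925394 on the + strand, downstream of *pac3*, which encodes a proteasome assembly chaperone. The commonest start in both libraries was 1923510, with 19 of 21 WT and 27 of 34 pool models in the main cluster. RefSeq gives *erg6* no intron, and yet all 19 WT and all 32 pool models that crossed the region had an intron removed from the leader. It began at 1923541 in all of them and ended at 1923599 in 18 WT and 30 pool models, or 7 nt further at 1923606 in 1 and 2. The 59-nt form is annotated in the 3′ UTR of *pac3*, which overlaps the leader of *erg6*. Splicing cuts the leader from 476 to 417 nt. The 51-nt intron from 1923907 to 1923957, further along the leader, was removed in 2 WT and 3 pool models, and a 63-nt intron of the 3′ UTR, from 1925229 to 1925291, in 3 of each. Neither is annotated, and both had GT and AG ends in both libraries. The capitals mark the first 6 nt, the CTNAC pattern where found, and the last AG. The form with the second acceptor also holds CTNAC, 28 nt from its end, but its printed window cuts the pattern, which is left unmarked.
*erg6* 59-nt leader intron, 5′ end: gtatattttgGTAAGAtagcgcact
*erg6* 59-nt leader intron, 3′ end: gaatCTAACaagttttttttcttAGcttta
*erg6* leader intron, second acceptor: acaagttttttttcttagctttaAGgcctc
*erg6* 51-nt leader intron, 5′ end: gtaatttttgGTTAGTtttttgctt
*erg6* 51-nt leader intron, 3′ end: tagcacatttacgattatttcatAGacgaa
*erg6* 63-nt 3′ UTR intron, 5′ end: ccaatacaagGTATATgaattctaa
*erg6* 63-nt 3′ UTR intron, 3′ end: acttgctaaacgaaactttacccAGtttct
The leader intron, kept in no model that crossed it, begins with GTAAGA and holds CTAAC and a run of T before its AG. The 51-nt and 63-nt introns, spliced in few models, have no CTNAC in the last 30 nt. The annotated 47-nt and 48-nt introns of *erg27* have none there either. These *erg27* introns were spliced in all 4 WT models and in 13 and 15 of 16 pool models. Only this pattern was searched, so its absence does not show that a branch point is absent. The part of CTNAC in splicing was not tested. None of the spliced or unspliced leaders from 1923510 held an ATG.

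The 5 pool models from *pac3* to *erg6* started at 1921443 to 1921450 and carried leaders of 2246 to 2478 nt with 47 to 52 upstream ATG triplets. The leader intron was removed in all 5, and 3 had the *pac3* intron of 231 nt removed. 3′ UTRs of *erg6* ran from 55 to 476 nt in WT and from 13 to 592 nt in the pool, with a median of 228 nt in both. In 2 pool models a 938-nt gap, from 1924150 to 1925087, removed most of the coding sequence and left 58 residues of 378. Its ends were TC and CC, and copies of a 6-nt repeat, in capitals, lay on either side.
*erg6* gap, low end: gatcgcaaTCATGAaaacgaat
*erg6* gap, high end: tatgttccTCATGAttgctaag

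*erg5* encodes the C22 desaturase, a cytochrome P450 that acts near the end of the pathway. The gene spans 2480065 to 2482169 of chromosome I on the − strand, convergent with *sst4*, which encodes an ESCRT 0 subunit. Starts fell into a main cluster around 2482166, with 3 of 6 WT and 9 of 13 pool models, and at upstream sites used in both libraries. These were 2482356, with 2 WT models and 1 pool model, and 2482440 to 2482444, with 1 and 2. From the last site an intron of the leader was removed in 1 model of each library. Both forms ended at 2482255, but began 32 nt apart, and measure 128 nt (WT) and 96 nt (pool). Both had GT and AG ends and are not annotated.
*erg5* 128-nt leader intron, 5′ end: caatataataGTGAGTgttagtaag
*erg5* 96-nt leader intron, 5′ end: aattactgcaGTAAGAaagcttttg
*erg5* leader intron, shared 3′ end: tattgtaagattcacatcgtaccAGattta
The annotated intron of 332 nt in the coding sequence was retained in 1 of 6 WT and 1 of 12 pool models. Both of these began at 2482356 and ended at 2480045, with 59 residues of 543 before a stop codon. The end at 2480045 was the commonest in both libraries, and 16 of the 20 genomic nt after it are A, a property whose part in these ends was not tested. Other models ran on into *sst4* on the opposite strand. The longest 3′ UTR measured 807 nt in WT and reached 866 nt in the pool, and 1 WT and 4 pool models reached the coding sequence of *sst4*.

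Across the genes, an intron with GT and AG ends that is not annotated was found at *erg5*, *erg6* and *erg11* in WT (3 of 10) and at these, *erg7* and *erg27* in the pool (5 of 10). Over all genes with sense models the share was 12.9% in WT and 31.6% in the pool.

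**Figure D3:**
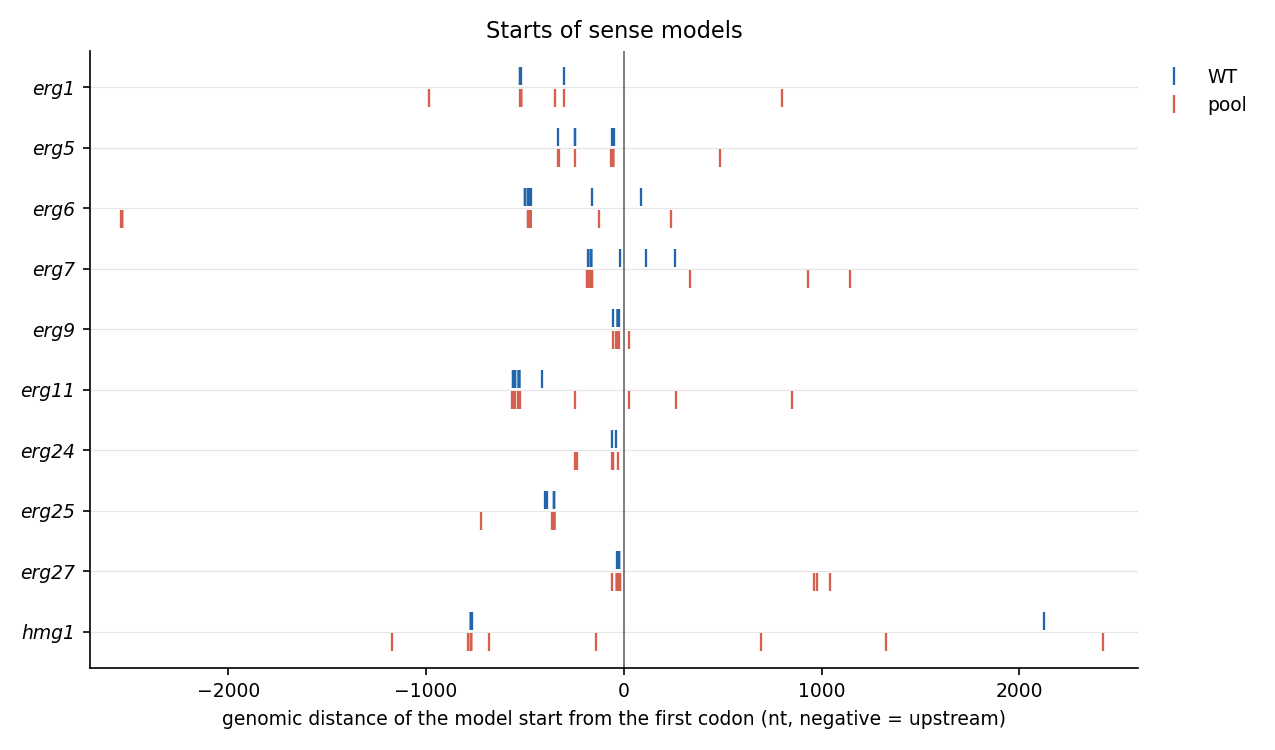
Start of every sense model as genomic distance from the first codon in nt, with upstream positions negative, WT in blue and the pool in red. The main starts coincide in both libraries, and starts far upstream at *erg1*, *erg6*, *erg24*, *erg25* and *hmg1* are red only, while those of *erg5* are in both.

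The long leaders of these genes were free of ATG triplets, and starts far upstream brought them in. The annotated leaders of *erg25*, *erg6*, *erg1*, *erg11* and *hmg1* are 355, 476, 519, 531 and 771 nt long, and none holds an ATG. Among all 512 genes with an annotated leader of at least 355 nt, 30.9% lack an ATG. The leaders of the other 5 genes are 23 to 166 nt, and of these only that of *erg7* has an ATG. Models that started at least 100 nt before the annotated start numbered 3 in WT, all at *erg5*, and 13 in the pool, at *erg1*, *erg5*, *erg6*, *erg24*, *erg25* and *hmg1*. Of these, 1 of 3 in WT and 12 of 13 in the pool held at least 1 upstream ATG. Starts within the coding sequence, at least 100 nt from the first codon, were seen in 3 WT models (3.61%, 0.752 to 10.2) at *erg7* and *hmg1*, and in 14 pool models (8.59%, 4.78 to 14.0) at 7 genes. Over all genes, 20.4% in WT and 46.0% in the pool had such a model. The genes found here were 2 of 10 and 7 of 10. Whether these 5′ ends are transcription starts or incomplete cDNA was not tested.

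**Figure D4:**
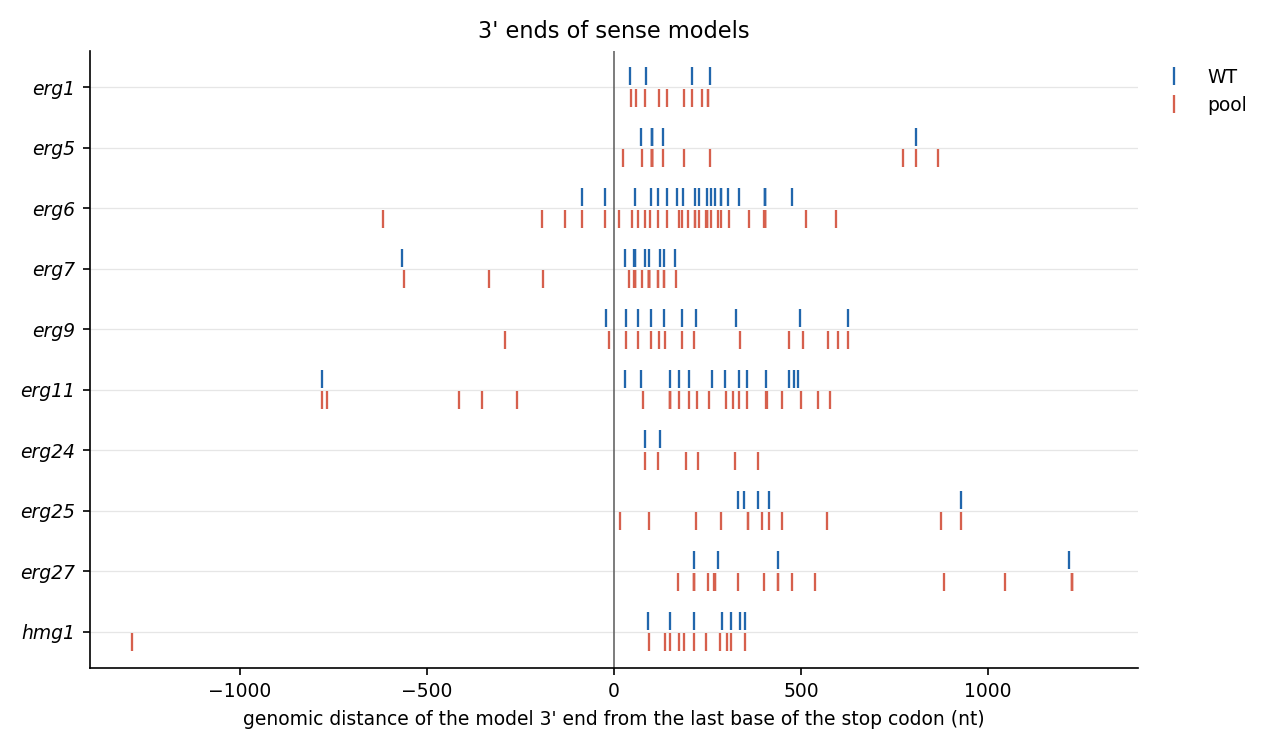
3′ end of every sense model as genomic distance from the last base of the stop codon in nt, with positions before the stop codon negative, WT in blue and the pool in red. Ends are scattered in both libraries, with ends far past the stop codon at *erg5*, *erg9*, *erg25* and *erg27* in both.

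3′ ends were linked into a cluster when they lay within 25 nt of each other. There were 52 end clusters in WT and 75 in the pool, and with ends linked within 50 nt, as starts were, there were 28 and 38, beside 20 and 36 start clusters. AATAAA, the canonical poly(A) signal of animals, began 10 to 40 nt before 6 of 78 WT ends (7.69%) and 7 of 147 pool ends (4.76%) past the coding sequence, and before 12.4% and 12.2% of all models of the libraries.

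No antisense model of these genes was found in WT, and 19 were found in the pool. An antisense model here lies on the opposite strand, overlaps an exon of the gene by at least 1 nt and overlaps no exon of a protein-coding gene on its own strand. WT had none at any of the 10 genes, and 0 of 10 allows a share of up to 30.8% (exact Clopper-Pearson), against 8.45% of all protein-coding genes. The pool had 19 models at 7 of 10 genes (70%, 34.8 to 93.3), against 55.7% of all genes, so the share lay near the background. *hmg1* had 6, *erg27* 5, *erg24* 3, *erg7* 2, and *erg1*, *erg5* and *erg9* had 1 each. *erg11*, *erg6* and *erg25* had none in either library. At *erg6* none could be called under this definition, since exons of the opposite-strand coding gene *uvi31* cover the gene. The shares above count it as a gene without antisense. The deletions of *hrp1* and *hrp3* and both drugs are in the pool, and their parts cannot be told apart.

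**Figure D5:**
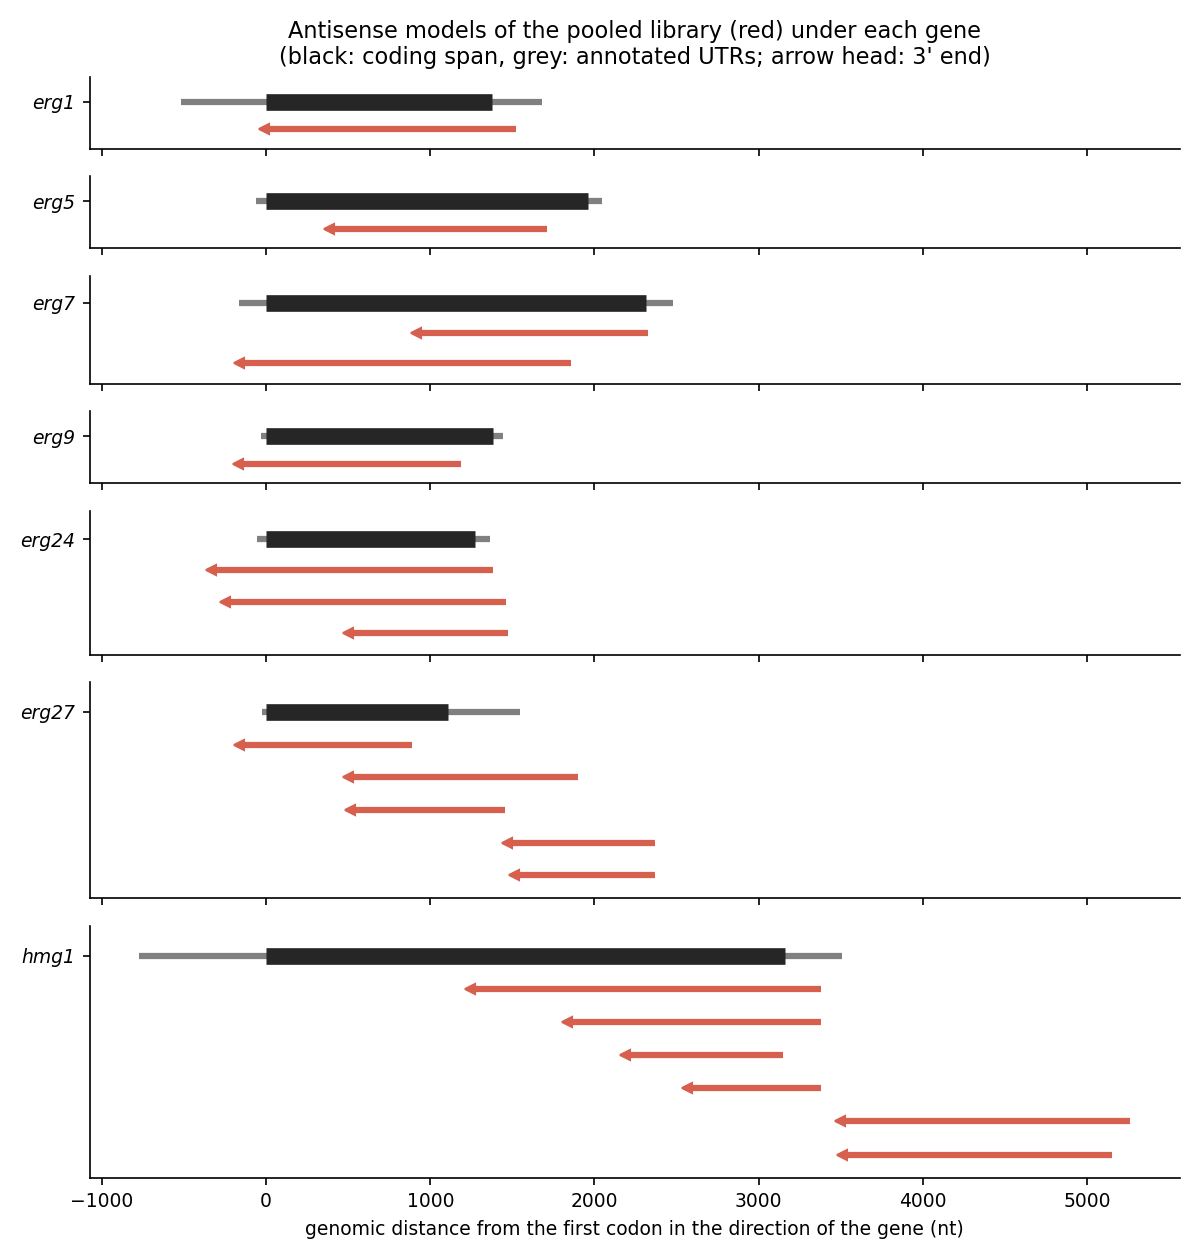
The 19 antisense models of the pool (red, arrow head at the 3′ end) under the 7 genes they overlap, with the coding span in black and annotated UTRs in grey. The x axis gives genomic distance from the first codon in nt; 3 models span a whole coding sequence, at *erg1* and *erg24*.

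The antisense models were 799 to 2137 nt long, with a median of 1406 nt. Of the 19, 8 started beyond the 3′ end of the gene, 6 in its 3′ UTR and 5 in its coding sequence, and none in its leader. Coding sequence was reached by 15, and 6 ended upstream of the first codon. At *erg24* all 3 started 107 to 199 nt past the stop codon. The longer 2 of them covered the whole coding sequence and ended 251 and 333 nt before the first codon, past the sense start. The *erg1* model covered all 1374 nt of coding sequence. At *hmg1*, 3 of the 6 shared a start 217 nt past the stop codon and ended at 1563228, 1563821 and 1564548, 1 started 13 nt before the stop codon, and the other 2 came from farther downstream and overlapped only 12 and 1 nt of the 3′ UTR. At *erg27*, 2 models that started past *pop8* had an intron from 1112971 to 1113028 with GT and AG ends on their own strand, and these were the only spliced ones of the 19. That intron overlaps the 57-nt *pop8* intron of the sense strand, from 1112988 to 1113044, without sharing its ends. Of the 19 models, 17 had at least 50% of their length within an annotated non-coding RNA gene on the same strand, so the antisense RNA of these genes is largely in the annotation already. With non-coding RNA genes counted as genes of the own strand, 1 of the 19 was left.

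Models of coding neighbours on the opposite strand were counted apart. WT had 9 at 4 of 10 genes and the pool 27 at 6 of 10, against 40.0% and 53.0% of all genes. They belonged to *psy2* at *erg1*, *sst4* at *erg5*, *uvi31* at *erg6*, *SPAC4G9.22* at *erg7*, *pla1* at *erg9* and, head to head, *ppk33* at *hmg1*. At *erg9* they overlapped 12 to 34 nt in the pool and 20 and 21 nt in WT. In the pool, 1 neighbour model at *erg5* and 1 at *erg7* reached coding sequence, over 90 nt (5.51%) and 292 nt (13.5%) of it. At *erg6* the overlap was larger. *uvi31* is annotated from 1921776 to 1926199, a span that contains *erg6* entirely, and 4 WT and 8 pool models of *uvi31* lay over *erg6* exons. Of these, 1 in WT and 3 in the pool reached its coding sequence, and in both libraries a model that ended at 1923924 covered all 1137 nt of it. A pool model ran further, to 1923140. The others ended in the 3′ UTR of *erg6*, at 1925379 among other positions in both libraries, and 14 of the 20 genomic nt that follow 1923924 and 1925379 are A. By the definition used, *erg6* could therefore have no free antisense model, but the coding neighbour covered its whole coding sequence on the opposite strand in both libraries.

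Antisense models of other genes of the pathway were likewise found in the pool alone. The lists held 8 genes of mevalonate synthesis and use, 8 of the later sterol steps and 11 of the Sre1 pathway. In WT, 0 of these 27 genes had an antisense model (up to 12.8%), and in the pool 13 did, with 34 models, again beside 8.45% and 55.7% of all genes. In the mevalonate list these were *hcs1*, the HMG-CoA synthase, with 4, *erg12*, the mevalonate kinase, with 5, and *mvd1*, the diphosphomevalonate decarboxylase, with 2. In the later steps *dap1*, a regulator of cytochrome P450 enzymes, had 5, *sts1*, the C24(28) reductase, had 3, *ccr1*, the NADPH-cytochrome P450 reductase, had 2 and *erg32*, a C5 desaturase, had 1. In the Sre1 list *sre1* had 5, its relative *sre2* had 2, *scp1*, whose product is the partner of Sre1 in sterol sensing, had 2, and *ofd1*, *nro1* and *dsc3* had 1 each. *dsc1*, a subunit of the E3 ligase needed for cleavage of Sre1, had none. Sense models of the 3 lists numbered 65, 33 and 73 in WT and 122, 83 and 123 in the pool. *dap1* and *ccr1*, which assist Erg11 and other P450 enzymes, had 0 and 1 sense models in WT and 3 each in the pool. The sense models of *sre1* numbered 6 in both libraries. Of the deleted genes, *hrp1* had 5 sense models in WT and 6 in the pool and *hrp3* 5 and 8, with 18 and 2 antisense models in the pool. Since the pool contains WT cells, these do not check the deletions.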

How the data were processed

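Isoforms were clustered by the authors from PacBio Revio reads (Iso-Seq4), aligned by minimap2 2.24 and reduced to models by TAMA Collapse, with 100 nt of tolerance at starts and at junctions and the setting for RNA without cap selection, under which a model that is only shorter at its 5′ end is absorbed by the longer one. Distinct models of a gene therefore differ mostly in 3′ end and exons. The deposited files give exon positions per library and, as deposited by the authors, a score of 40 on every model, which was not used. Reads per model are unknown. The labels name ASM294v2; ASM294v3 was used after 97.2% of distinct WT introns and 89.7% of pool introns showed GT and AG ends and no model passed a chromosome end.

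Samples were grouped by their labels. Genes were matched by symbol to RefSeq (*sts1* as a synonym of erg4), and all listed genes matched. Models were classified with Python 3.11.15, NumPy 2.4.6 and SciPy 1.17.1 and drawn with Matplotlib 3.10.9. Annotated introns counted as spliced when both ends lay within 10 nt. The rule for naming genes took all 10 genes, further pathway genes with antisense models, *sre1*, *scp1*, *dsc1*, *hrp1*, *hrp3* and neighbours that models reach. Members and lists were chosen with earlier results of these data known. Of 200 planted models in a simulated set, 200 were assigned to their class. They lay on genes without a close coding neighbour, so models of neighbours and models that read into them were not covered. The alternatives varied overlap, linking distances, junction tolerance and the distance from the first codon.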

Additional observations from a re-analysis of the deposited data

How the results depend on the processing

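Of 38 values recomputed under the alternatives, 34 stayed within 1.5 times the reported count. Linking 3′ ends within 50 nt in place of 25 nt gave 28 clusters in WT and 38 in the pool. A minimum of 300 nt from the first codon left 1 WT model starting in the coding sequence. Counting lncRNA and ncRNA genes as genes on the own strand left 1 antisense model in the pool, since the others overlap such a gene, in 1 case by 1 nt. The count of 7 genes with antisense models in the pool held when 50 nt of exon or any coding sequence had to be covered, and WT had 0 throughout. No paired analysis was possible because each group has 1 library. With unknown depth, a model missing from WT may have been missed by sampling, and the collapse of shorter 5′ ends lowers the number of starts that can be seen.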
